A study of Homo sapiens with 6 samples.

Results

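The genes described here are 40 human genes of double-strand break repair and of the Fanconi anaemia pathway, chosen by name, of 56303 rows in a deposited table of read counts per gene. All 40 names were found in the table, and all 40 passed the filter on low counts. They were sorted by role into homologous recombination (13 genes), end resection and unwinding (5), the Fanconi group (11), end joining (6) and the checkpoint group (5). The libraries came from A549, an established human lung adenocarcinoma cell line: 3 from cells transfected with siRNA against HNRNPD (siHNRNPD) and 3 from cells transfected with a negative-control siRNA (NC). No genotype, drug or DNA-damaging agent beyond the siRNA is named in the labels, and neither the siRNA sequences nor the time after transfection is given in the sources used here. Nothing says that the libraries of a group came from separate cultures, so p-values reflect how far these 6 libraries vary, and that variation may be technical.

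A double-strand break can be joined directly, end to end, by a machinery built on the Ku heterodimer, or copied from the sister chromatid by homologous recombination, which needs the ends to be cut back to single strands that can invade the intact copy. The Fanconi pathway detects crosslinks between the DNA strands, marks the FANCD2-FANCI pair with ubiquitin and hands the break that follows to recombination. Kinases of the checkpoint report breaks and bare single strands and hold the cell cycle. HNRNPD encodes AUF1, a protein known to bind AU-rich sequence in mRNAs and to alter their stability.

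HNRNPD itself had 177, 163 and 167 CPM (read counts scaled to the size of the library) in siHNRNPD libraries, against 965, 943 and 942 CPM in NC libraries. All 3 siHNRNPD libraries lay below all 3 NC libraries, and the log2 fold change was -2.49 (SE 0.06, edgeR adjusted p = 1.38e-15). Totals ran from 37151094 to 43005090 counts per library. The epithelial keratin genes KRT8 and KRT18 averaged 2055 and 588 CPM in siHNRNPD libraries, against 3327 and 993 CPM in NC libraries. The epithelial genes KRT19 and CDH1 averaged 3.84 and 87.4 CPM in siHNRNPD libraries, against 7.54 and 95.8 CPM in NC libraries. EPCAM went the other way, at 20.9 CPM in siHNRNPD libraries and 16.6 CPM in NC libraries. A list of 10 markers of blood, vessel, stromal and neural cells summed to 97.4 to 175 CPM in siHNRNPD libraries and to 26.7 to 27.4 CPM in NC libraries. Most of that sum was CD68, at 101 and 18.1 CPM for siHNRNPD and NC. NCAM1 was at 17.1 and 3.1 CPM, and the stromal marker COL1A1 at 6.67 and 5.14 CPM, for siHNRNPD and NC. The stromal markers COL3A1 and PDGFRB averaged 0.423 and 0.28 CPM in siHNRNPD libraries, against 0.204 and 0.149 CPM in NC libraries. The blood marker PTPRC was at 0 in every siHNRNPD library and the stromal marker DCN in every NC library. The part of other cells in the results below was not tested. Proliferation genes moved too: of 39 genes of S phase and mitosis, 4 were called higher and 30 lower in siHNRNPD libraries, and the median of their log2 fold changes was -0.36. That is 87.2% called, against 56.1% of all tested genes and 67.3% of tested genes that average 5 CPM or more. Whether the change in this list bears on the repair genes was not tested, and in bulk RNA fewer cells in a phase and less RNA per cell cannot be told apart.

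Of the 40 genes, 12 were called higher and 11 lower in siHNRNPD libraries at an edgeR adjusted p under 0.05, and 17 were not called. That is 57.5% called, against 56.1% of the 20465 genes tested, of which 28.4% were higher and 27.8% lower. The share called was thus near that of the whole table, and the directions were almost evenly divided. The changes were mostly small: 6 of the 40 were called at 1.5-fold or more (RAD51B, BRCA2, RAD50 and MDC1 higher, FANCB and BLM lower), against 31.2% of all tested genes. Among the 11334 tested genes that average 5 CPM or more, a level that 37 of the 40 reach, 67.3% were called and 26.2% passed that fold as well. RAD51B and FANCB, named above, average less than 5 CPM, so the 40 genes are not fully matched to that background. The median log2 fold change over the 40 genes was -0.04, and over all tested genes 0.01. The sum of the 40 genes averaged 3099 ± 129 CPM in siHNRNPD libraries and 3098 ± 9.44 CPM in NC libraries (SD, n = 3 each). This sum weighs abundant genes most, and the sums of the role groups moved both ways. For siHNRNPD and NC they averaged 656 and 506 CPM in end resection, 331 and 257 in the checkpoint group and 351 and 332 in recombination. They averaged 1434 and 1612 CPM in end joining and 327 and 391 in the Fanconi group. The groups did not overlap for 26 of the 40 genes, against 62.6% of all tested genes. The share of all genes called under other settings, against which the same 40 are counted in the closing section, was 56.1% with DESeq2 size factors, 55.6% with library totals, 56.4% with limma-voom and 39.7% with the DESeq2 Wald test. It was 30.3% with no low-count filter, 63.3% where 3 libraries had to reach 1 CPM, 60.6% with counts divided by 2, 56.3% with the replicate block, 56.2% without mitochondrial genes and 56.2% with an offset for gene length.

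**Figure D1:**
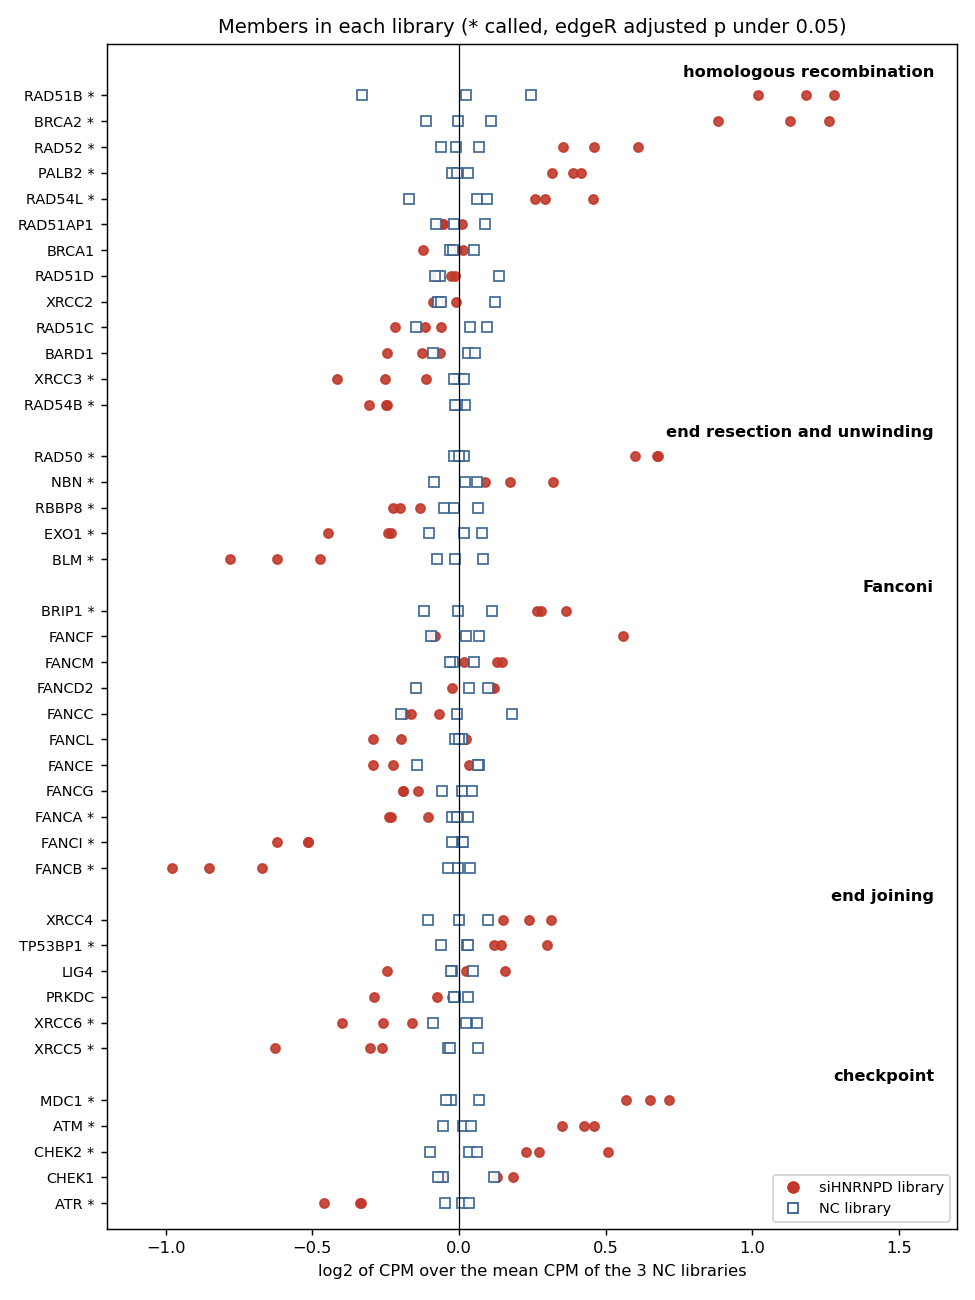
Each row is a gene and each mark a library, placed by the log2 of its CPM over the mean CPM of the 3 NC libraries; filled circles are siHNRNPD libraries, open squares NC libraries, and a star marks genes called by edgeR. RAD51B and BRCA2 stand furthest right and FANCB furthest left, and most other genes lie within 0.5 of the NC mean.

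The role groups, of 5 to 13 genes each, are set here beside all tested genes, of which 56.1% were called (28.4% higher, 27.8% lower). Of tested genes averaging 5 CPM or more, 67.3% were called. The share called was 53.8% in homologous recombination, 50% in end joining and 36.4% in the Fanconi group. It was 80% in the checkpoint group and 100% in end resection and unwinding. In the checkpoint group 3 of 5 were higher and 1 lower, and the median log2 fold change was 0.34. In homologous recombination 5 of 13 were higher and 2 lower, with a median of -0.04. In end resection and unwinding 2 of 5 were higher and 3 lower, with a median of -0.19. In the Fanconi group 1 of 11 was higher and 3 were lower, with a median of -0.15 (-0.09 without siHNRNPD replicate 3), and 7 were not called. In end joining 1 of 6 was higher and 2 were lower, with a median of -0.07 (-0.14 without siHNRNPD replicate 2, -0.04 without siHNRNPD replicate 1 or 3). Each gene was counted in 1 group only, so these counts depend on how the genes were sorted. BRCA2 and PALB2, both called higher, also carry Fanconi names but were counted in homologous recombination. The same holds for BRCA1, RAD51C and XRCC2, which were not called. No test of the difference between these small groups was made, and the counts describe only the genes listed.

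**Figure D2:**
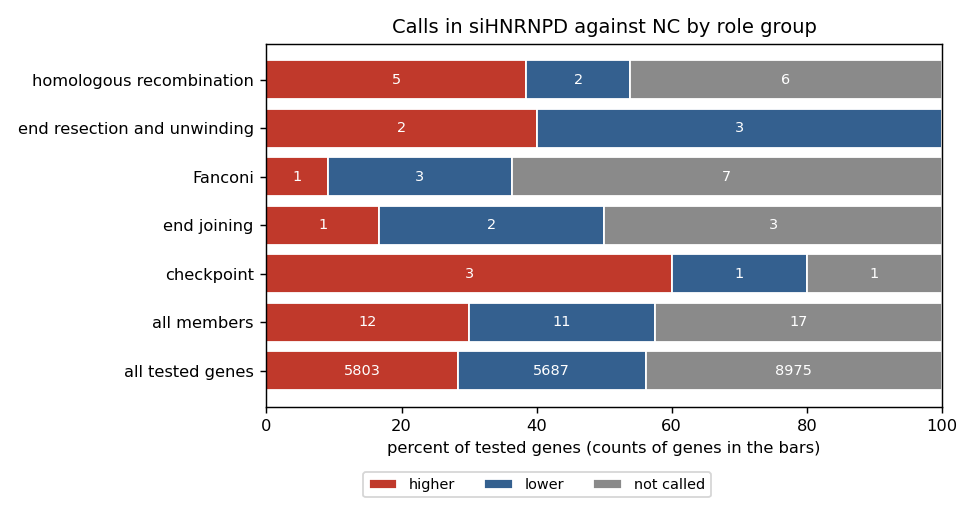
Bars give the percent of tested genes called higher, called lower or not called in siHNRNPD against NC, for each role group, for all 40 genes and for all tested genes; numbers in the bars are counts of genes. The 40 genes together (12 higher, 11 lower) divide much as the whole table does.

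Promoter sequence was available from RefSeq (GRCh38.p14, from 250 bases before to 50 bases after an annotated start) for 35 of the 40 genes, 12 of which have more than 1 window. Words known from cell-cycle and other promoters were searched on both strands: the E2F words TTTGGCGC and TTTCCCGC, the CHR word TTTGAA of late cell-cycle genes, the word GAAANNGAA found in interferon response elements, and the box CCAAT, bound by NF-Y. The windows below are those of the largest rises and falls among called genes with 1 window that holds any of these words, with the words in capitals and the start site after base 250. They are shown to let the words be read in place beside the changes of these genes.
MDC1: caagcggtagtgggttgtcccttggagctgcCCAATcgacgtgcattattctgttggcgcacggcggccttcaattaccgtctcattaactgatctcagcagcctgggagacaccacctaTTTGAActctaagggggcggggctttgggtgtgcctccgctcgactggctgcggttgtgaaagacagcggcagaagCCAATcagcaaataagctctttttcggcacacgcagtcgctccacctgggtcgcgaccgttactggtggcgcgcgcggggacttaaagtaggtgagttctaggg
PALB2: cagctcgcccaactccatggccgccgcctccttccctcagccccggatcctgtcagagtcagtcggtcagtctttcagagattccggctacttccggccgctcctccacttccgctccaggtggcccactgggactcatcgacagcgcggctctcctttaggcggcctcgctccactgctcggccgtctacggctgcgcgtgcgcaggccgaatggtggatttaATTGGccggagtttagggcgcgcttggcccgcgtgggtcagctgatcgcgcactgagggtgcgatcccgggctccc
BLM: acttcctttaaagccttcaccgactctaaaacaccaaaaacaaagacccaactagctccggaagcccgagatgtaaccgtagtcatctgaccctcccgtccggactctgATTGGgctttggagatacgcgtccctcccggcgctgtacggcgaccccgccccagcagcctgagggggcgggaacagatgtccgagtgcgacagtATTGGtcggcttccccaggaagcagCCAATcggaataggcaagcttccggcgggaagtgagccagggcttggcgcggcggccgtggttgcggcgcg
XRCC6: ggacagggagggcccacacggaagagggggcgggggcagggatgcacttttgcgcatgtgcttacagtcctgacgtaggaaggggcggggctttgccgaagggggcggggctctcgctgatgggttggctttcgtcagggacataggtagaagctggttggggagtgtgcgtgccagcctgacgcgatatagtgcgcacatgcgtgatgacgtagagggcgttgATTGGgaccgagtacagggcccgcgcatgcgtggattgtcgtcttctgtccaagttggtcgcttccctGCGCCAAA
The MDC1 window lies at chr6:30717232-30717531 on the minus strand, that of PALB2 at chr16:23641261-23641560 on the minus strand, that of BLM at chr15:90717096-90717395 on the plus strand and that of XRCC6 at chr22:41621045-41621344 on the plus strand. ATTGG is CCAAT read from the other strand, and GCGCCAAA at the end of the XRCC6 window is an E2F word read from the other strand. The windows of BRCA2, RAD50 and FANCB, which changed more than PALB2 and XRCC6, held none of the words. The same held for ATR, which fell more than XRCC6, and for RAD51B, RAD52 and EXO1, which have more than 1 window.

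Over the 35 genes an E2F word was found in 4 (11.4%), against 4.29% of the 11361 tested genes with a window. The 4 were XRCC2, FANCC and FANCD2, which were not called, and XRCC6, which was lower. None of the 11 genes called higher that have a window held an E2F word. CCAAT was found in 18 of 35 (51.4%), against 42.6% of tested genes: in 7 of 11 called higher, 4 of 8 called lower and 7 of 16 not called. The CHR word was found in 4 of 35 (11.4%, against 14% of tested genes), namely BRIP1, ATM and MDC1, all higher, and FANCC. The interferon response word was found in BRCA1, RAD51AP1, FANCE and FANCM, none of them called, which is 11.4% against 9.01% of tested genes. A gene with several windows was counted once if any window held the word. These matches describe letters and do not show binding.

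In homologous recombination the largest changes were rises. BRCA2, a mediator of recombination that binds single-stranded DNA (chromosome 13, 32315474 to 32400266, plus strand), had 50.8, 43 and 55.7 CPM in siHNRNPD libraries, against 23.2, 21.5 and 25.1 CPM in NC libraries. The groups were far apart, at 1.10 on the log2 scale (SE 0.09, edgeR adjusted p = 2.22e-08). PALB2, the bridge that carries BRCA2 to BRCA1, had 14.2, 15 and 15.2 CPM in siHNRNPD libraries and 11.7, 11.2 and 11.3 CPM in NC libraries. It rose less, by 1.3-fold (log2 fold change 0.38, SE 0.09, adjusted p = 0.00106), and its groups did not overlap. BRCA1, which works with BARD1 as a ubiquitin ligase and promotes resection, had 78.9, 77.9 and 71.7 CPM in siHNRNPD libraries and 76.4, 80.9 and 77.1 CPM in NC libraries. These groups overlapped, at a log2 fold change of -0.04 (SE 0.06, adjusted p = 0.627), and BARD1 had -0.14 (SE 0.10, adjusted p = 0.24).

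RAD51B, RAD51C, RAD51D and XRCC2 form a complex that acts in recombination, and of these 4 genes RAD51B was called. RAD51B had 2.91, 2.43 and 2.72 CPM in siHNRNPD libraries, against 1.22, 1.42 and 0.954 CPM in NC libraries. Its log2 fold change was 1.16 (SE 0.20, edgeR adjusted p = 9e-05), the largest rise of the 40, at the lowest level per length of the 40 genes: 0.36 CPM per kb of exons in siHNRNPD libraries and 0.16 in NC libraries. The lowest count behind these values was 40. Its partners RAD51C, RAD51D and XRCC2 had log2 fold changes of -0.13 (SE 0.09), -0.04 (SE 0.10) and -0.05 (SE 0.06), none of them called, and their groups overlapped. XRCC3, which pairs with RAD51C in a separate complex, had 21.7, 26.8 and 24.3 CPM in siHNRNPD libraries and 29, 28.7 and 29.3 CPM in NC libraries. It was called lower (log2 fold change -0.25, SE 0.08, adjusted p = 0.0103), but 76.7% of its exonic bases lie opposite exons of KLC1, and without siHNRNPD replicate 1 the adjusted p was 0.0502.

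Of the remaining recombination genes, RAD52, which anneals single strands, had 12.6, 15 and 13.5 CPM in siHNRNPD libraries, against 9.77, 10.3 and 9.44 CPM in NC libraries. It rose 1.39-fold (log2 fold change 0.48, SE 0.10, edgeR adjusted p = 0.000322), and no siHNRNPD library reached down to the NC range. The DNA translocases RAD54L and RAD54B went opposite ways. RAD54L was higher, at 8.29 ± 0.615 CPM in siHNRNPD libraries and 6.55 ± 0.641 CPM in NC libraries (SD, n = 3 each; log2 fold change 0.34). Its call was lost without siHNRNPD replicate 3 (adjusted p = 0.061) or NC replicate 3 (adjusted p = 0.116) and in the DESeq2 test (adjusted p = 0.0623), and 25.1% of its exonic bases lie opposite LRRC41. RAD54B was lower, at 25.2 ± 0.593 CPM in siHNRNPD libraries and 30.3 ± 0.358 CPM in NC libraries (log2 fold change -0.27), and 51.3% of its exonic bases are shared with FSBP on the same strand. RAD51AP1, which stimulates strand invasion, had a log2 fold change of -0.03 (SE 0.07).

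All 5 end resection genes were called, in both directions, against 67.3% of tested genes that average 5 CPM or more, as these do. The calls of NBN and RBBP8 were lost under some alternatives, given with their values. RAD50, the long coiled-coil subunit of the MRN complex that first holds the ends (chromosome 5, 132556019 to 132646344, plus strand), had 468, 443 and 467 CPM in siHNRNPD libraries, against 289, 296 and 293 CPM in NC libraries. This was a 1.57-fold rise (log2 fold change 0.65, SE 0.06, edgeR adjusted p = 1.49e-08) with little spread inside either group. NBN, the MRN subunit that binds ATM, had 78.4, 73.8 and 86.8 CPM in siHNRNPD libraries and 72.5, 65.4 and 70.3 CPM in NC libraries. Its log2 fold change of 0.20 (SE 0.07, adjusted p = 0.019) became 0.12 without siHNRNPD replicate 3 (adjusted p = 0.0744), and its call was also lost without NC replicate 2 (adjusted p = 0.132) or 3 (adjusted p = 0.0616) and in the DESeq2 test (adjusted p = 0.0517). The remaining MRN subunit, the nuclease MRE11, is one of the further repair genes, listed in the table as MRE11A, and was called lower: it had 95.8, 87.9 and 90.8 CPM in siHNRNPD libraries, against 101, 111 and 108 CPM in NC libraries (log2 fold change -0.22, SE 0.06, adjusted p = 0.00441). The MRN subunits thus did not share a direction. BLM, the RecQ helicase that unwinds ends and dissolves recombination intermediates, had 23.9, 21.6 and 19.3 CPM in siHNRNPD libraries, against 33, 35.2 and 31.6 CPM in NC libraries. BLM fell 1.54-fold (log2 fold change -0.62, SE 0.08, adjusted p = 3.45e-06), with every siHNRNPD library below every NC library.

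EXO1, the exonuclease of long-range resection, had 26.6, 26.8 and 23.1 CPM in siHNRNPD libraries and 33.2, 29.3 and 31.9 CPM in NC libraries. It was lower without overlap (log2 fold change -0.30, SE 0.08, edgeR adjusted p = 0.00274). RBBP8, which encodes CtIP, the cofactor that starts MRN cutting, was at 69.6 ± 2.33 CPM in siHNRNPD libraries and 79.2 ± 3.31 CPM in NC libraries (SD, n = 3 each). Its log2 fold change was -0.19, and the call was lost without siHNRNPD replicate 2 (adjusted p = 0.0538) or NC replicate 2 (adjusted p = 0.0706).

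In the Fanconi group the falls were of FANCB, FANCI and FANCA. FANCB, a subunit of the core ubiquitin ligase complex encoded on the X chromosome, had 3.57, 2.89 and 3.15 CPM in siHNRNPD libraries, against 5.54, 5.67 and 5.84 CPM in NC libraries. It had the largest fall of the 40 genes, 1.78-fold (log2 fold change -0.83, SE 0.14, edgeR adjusted p = 4.45e-05). FANCI, which with FANCD2 is the substrate of that ligase, had 120.5, 120.3 and 112 CPM in siHNRNPD libraries, against 173, 174 and 169 CPM in NC libraries. FANCI fell 1.46-fold (log2 fold change -0.55, SE 0.06, adjusted p = 1.86e-07). FANCD2 had 43, 43.3 and 39.2 CPM in siHNRNPD libraries and 36, 42.7 and 40.9 CPM in NC libraries, which overlap, at a log2 fold change of 0.07 (SE 0.07, adjusted p = 0.443).

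The core complex subunit FANCA was at 57.4 ± 3.01 CPM in siHNRNPD libraries and 65.6 ± 1.24 CPM in NC libraries (SD, n = 3 each), a called log2 fold change of -0.19, and 23.6% of its exonic bases lie opposite ZNF276. The other core subunits FANCC, FANCE, FANCF, FANCG and FANCL, the last of which carries the ligase activity, were not called, with log2 fold changes of -0.14, -0.15, 0.17, -0.17 and -0.15. That of FANCF was -0.09 without siHNRNPD replicate 2. Of these genes FANCG had groups that did not overlap (adjusted p = 0.0732), and FANCL was called lower without siHNRNPD replicate 1 (log2 fold change -0.25, adjusted p = 0.00803), with 19.7% of its exonic bases opposite VRK2. FANCM, the translocase that anchors the core complex to DNA, had a log2 fold change of 0.10 (SE 0.08). BRIP1, the helicase FANCJ that binds BRCA1, was the gene of the group called higher, with 24.8, 25 and 26.6 CPM in siHNRNPD libraries, against 22.3, 20.6 and 19 CPM in NC libraries. BRIP1 rose 1.24-fold (log2 fold change 0.30, SE 0.08, adjusted p = 0.00271).

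End joining held the most abundant gene of the 40, XRCC6 per length and PRKDC by CPM. Per length, XRCC6 (Ku70) and XRCC5 (Ku80), the ring that threads onto broken ends, were at 83 and 50.3 CPM per kb in siHNRNPD libraries and at 100 and 65.9 CPM per kb in NC libraries. PRKDC, which encodes the kinase DNA-PKcs that Ku recruits, was at 43.9 CPM per kb in siHNRNPD libraries and 47.8 CPM per kb in NC libraries. The resection gene RAD50, at 47 and 29.9 CPM per kb for siHNRNPD and NC, stood above PRKDC in siHNRNPD libraries. XRCC5 had 292, 300.1 and 233 CPM in siHNRNPD libraries, against 377, 351 and 352 CPM in NC libraries, a fall of 1.31-fold (log2 fold change -0.39, SE 0.08, edgeR adjusted p = 0.000747). XRCC6 had 294, 275 and 249 CPM in siHNRNPD libraries, against 334, 309 and 343 CPM in NC libraries (log2 fold change -0.27, SE 0.07, adjusted p = 0.00211). Both subunits of Ku were thus lower, without overlap. PRKDC had 700.0, 726 and 604 CPM in siHNRNPD libraries and 730.2, 753 and 728 CPM in NC libraries. PRKDC was not called (log2 fold change -0.12, SE 0.07, adjusted p = 0.126), although its groups did not overlap, and it was called lower with no filter on low counts (log2 fold change -0.15, adjusted p = 0.039). In XRCC5, XRCC6 and PRKDC the lowest of the siHNRNPD values was that of replicate 3, as in 21 of the 40.

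TP53BP1, which encodes 53BP1, the chromatin protein that restrains resection, had 192, 169.9 and 173 CPM in siHNRNPD libraries and 149.9, 159 and 159.7 CPM in NC libraries. Its log2 fold change was 0.19 (SE 0.06, edgeR adjusted p = 0.0142). It was 0.12 without siHNRNPD replicate 1 (adjusted p = 0.119) and 0.15 without NC replicate 1 (adjusted p = 0.0981), and 28.7% of its exonic bases lie opposite TUBGCP4. LIG4, the ligase of the pathway, had a log2 fold change of -0.01 (SE 0.09, adjusted p = 0.932). Its scaffold partner XRCC4 had 0.24 (SE 0.10, adjusted p = 0.0619). XRCC4 groups did not overlap, and XRCC4 was called higher where 3 libraries had to reach 1 CPM (adjusted p = 0.0353) and with counts divided by 2 (adjusted p = 0.0458).

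In the checkpoint group MDC1, ATM and CHEK2 were higher and ATR was lower. MDC1, the adaptor that reads phosphorylated H2AX beside a break and holds ATM there, had 157, 150.2 and 142 CPM in siHNRNPD libraries, against 93.8, 100.4 and 92.9 CPM in NC libraries. MDC1 rose 1.56-fold (log2 fold change 0.65, SE 0.06, edgeR adjusted p = 4.89e-08), and every siHNRNPD library stood above every NC library. ATM, the kinase that responds to breaks (chromosome 11, 108222484 to 108369102, plus strand), had 87.6, 92.5 and 94.6 CPM in siHNRNPD libraries, against 66.1, 69.3 and 70.7 CPM in NC libraries (log2 fold change 0.41, SE 0.06, adjusted p = 1.04e-05). CHEK2, the kinase that ATM activates, was at 27.2 ± 2.91 CPM in siHNRNPD libraries and 21.5 ± 1.26 CPM in NC libraries (SD, n = 3 each), a log2 fold change of 0.34 (adjusted p = 0.00186). ATR, the kinase that responds to single strands coated with RPA, had 37.5, 37.6 and 34.5 CPM in siHNRNPD libraries, against 47.8, 48.6 and 45.8 CPM in NC libraries. ATR fell 1.3-fold (log2 fold change -0.38, SE 0.07, adjusted p = 7.78e-05), and 16.4% of its exonic bases lie opposite another gene. CHEK1, the kinase that ATR activates, was not called (log2 fold change 0.09, SE 0.08, adjusted p = 0.367). Further genes of break signalling outside the group went both ways. UIMC1 and RIF1 were called higher, like MDC1 (log2 fold changes 0.59 and 0.31), BRCC3 was called lower (-0.38), and ABRAXAS1, BABAM1 and BABAM2 were not called. H2AX, RNF8 and RNF168 went the other way from MDC1. The genes named here were picked after their values were seen. H2AX, listed in the table as H2AFX, the histone whose phosphorylated form MDC1 reads, had 7.53, 7.99 and 5.57 CPM in siHNRNPD libraries, against 15.7, 13.7 and 12.9 CPM in NC libraries, and fell 2.01-fold (SE 0.12 on the log2 scale, adjusted p = 2.59e-06). RNF8 and RNF168, the ubiquitin ligases that act after MDC1, were called lower at log2 fold changes of -0.18 and -0.19. The RNF8 call was lost without siHNRNPD replicate 1 (adjusted p = 0.0611) and with library totals (adjusted p = 0.0569), and the RNF168 call under 8 of the 16 alternatives, with -0.11 without siHNRNPD replicate 2 (adjusted p = 0.241).

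**Figure D3:**
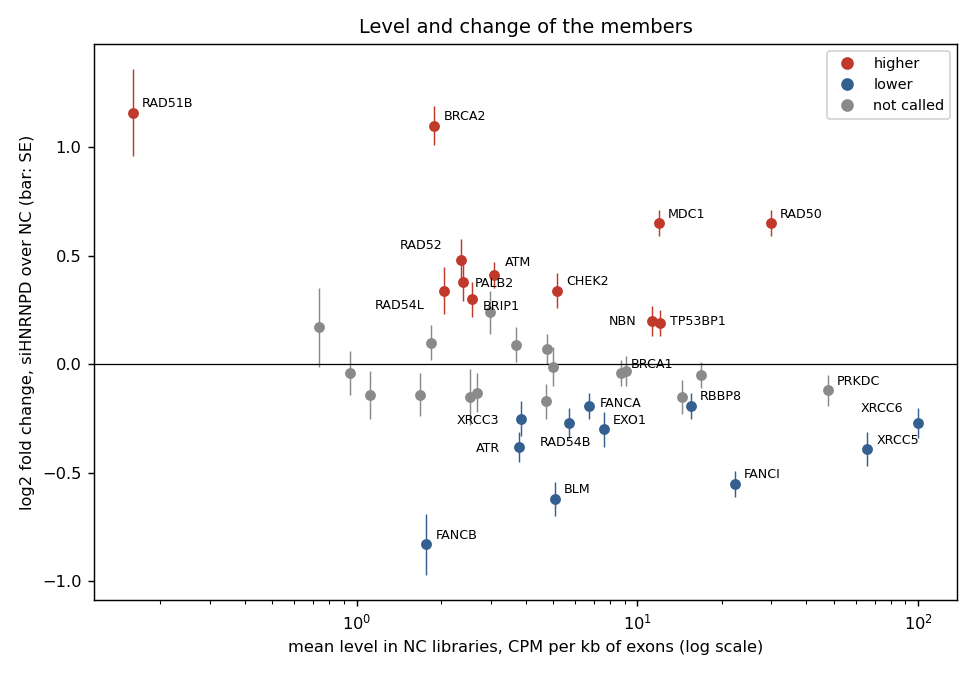
Each point is a gene, placed by its mean level in NC libraries (CPM per kb of exons, log scale) and its log2 fold change, siHNRNPD over NC, with the SE as a bar; colours give the edgeR call. XRCC6 (100 CPM per kb), XRCC5 (65.9) and FANCI (22.2) are lower at high levels, while RAD50 (29.9) and MDC1 (11.9) are higher.

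Partners and kinases that act side by side changed unequally in several pairs, as seen in the ratio of their CPM inside each library, which does not depend on scaling. RAD50 to NBN was 5.97, 6.01 and 5.38 in siHNRNPD libraries, against 3.99, 4.53 and 4.16 in NC libraries. ATM to ATR was 2.34, 2.46 and 2.74 in siHNRNPD libraries, against 1.38, 1.43 and 1.54 in NC libraries. FANCD2 to FANCI was 0.357, 0.36 and 0.35 in siHNRNPD libraries, against 0.208, 0.246 and 0.242 in NC libraries. In each of these pairs the groups did not overlap. BRCA2 to PALB2, at 3.37 ± 0.432 in siHNRNPD libraries and 2.04 ± 0.153 in NC libraries (SD, n = 3 each), did not overlap either. The ratio XRCC5 to XRCC6 was 1.01 ± 0.0802 in siHNRNPD libraries and 1.1 ± 0.0608 in NC libraries, and BRCA1 to BARD1 was 8.28 ± 0.785 and 7.7 ± 0.656 for siHNRNPD and NC. In these 2 pairs the groups overlapped. The pairs were picked with the fold changes known, so the ratios are given without a test.

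**Figure D4:**
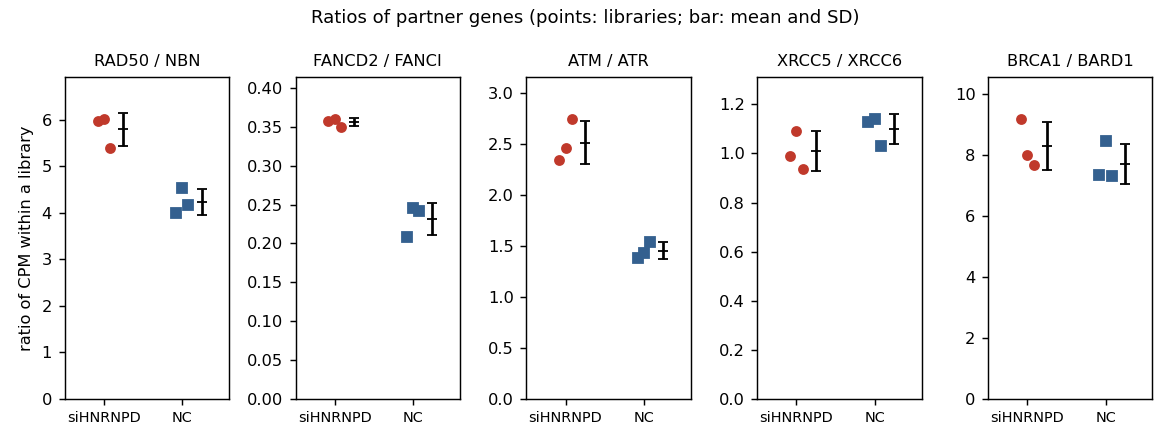
Each panel shows the ratio of CPM of 1 pair of genes in every library, siHNRNPD on the left and NC on the right, with mean and SD (n = 3) as bars. The groups separate for RAD50 / NBN, FANCD2 / FANCI and ATM / ATR, and overlap for XRCC5 / XRCC6 and BRCA1 / BARD1.

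Of 65 other genes of double-strand break repair, crosslink repair and their signalling, 11 were higher and 27 lower in siHNRNPD libraries, and 27 were not called. That is 58.5% called, against 56.1% of all tested genes, of which 28.4% were higher and 27.8% lower. Of tested genes averaging 5 CPM or more, a level that most of this list reached, 67.3% were called. Without NC replicate 3 the number higher was 7. The median log2 fold change of this list was -0.18. ATRIP, the partner that brings ATR to RPA, had 20.5, 18.2 and 21.2 CPM in siHNRNPD libraries, against 7.86, 8.94 and 8.01 CPM in NC libraries (log2 fold change 1.27, SE 0.09, edgeR adjusted p = 1.79e-09), but 33.8% of its exonic bases are shared with other genes on the same strand, mainly TREX1. The groups did not overlap. UIMC1, known as RAP80, which brings BRCA1 to ubiquitin at breaks, had 109, 117 and 125 CPM in siHNRNPD libraries, against 80.3, 77.6 and 75.6 CPM in NC libraries, and rose 1.51-fold. POLL, a gap-filling polymerase of end joining, had 10.8, 11.9 and 10.4 CPM in siHNRNPD libraries, against 5.75, 6.7 and 6.65 CPM in NC libraries, and rose 1.74-fold. REV3L, the catalytic subunit of polymerase zeta, had 32.5, 33.6 and 33.4 CPM in siHNRNPD libraries, against 25.2, 26.1 and 23.4 CPM in NC libraries, and rose 1.33-fold. In these 3 genes too every siHNRNPD library stood above every NC library. The largest fall among the genes with the smallest p was of MAD2L2, the subunit REV7 of both shieldin and polymerase zeta. MAD2L2 had 1.65, 1.34 and 1.4 CPM in siHNRNPD libraries, against 7.79, 8.38 and 7.44 CPM in NC libraries (log2 fold change -2.43, SE 0.15, adjusted p = 1.27e-10).

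RAD18, the ubiquitin ligase of PCNA, had 20.4, 19.4 and 17.1 CPM in siHNRNPD libraries, against 37.6, 34.5 and 33.9 CPM in NC libraries, and fell 1.86-fold. CENPS, a partner of FANCM listed in the table as APITD1, had 17.6, 16.8 and 14.7 CPM in siHNRNPD libraries, against 29.7, 30.3 and 29 CPM in NC libraries. CENPS fell 1.81-fold without overlap, with 64.7% of its exonic bases shared with other genes, mainly a read-through gene.

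Features of the 3' regions, which the choice of genes did not use, were also compared. They were themselves chosen after the counts were seen. The annotated 3' untranslated region, from 1 GENCODE 29 transcript per gene, had a median of 1354 bases in the 12 genes called higher and 339 bases in the 11 called lower. The 17 genes not called had a median of 1094 bases. In all tested protein-coding genes the medians were 1082 bases for those higher, 1192 for those lower and 1014 for those not called. The Spearman correlation of this length with the log2 fold change was 0.31 over the 40 genes and -0.04 over 13222 tested genes, given as a description across genes, which share the 6 libraries. The AU-rich word ATTTA occurred at a median of 2.67 per kb in the genes called higher and 1.9 per kb in those called lower, against 1.55 and 1.67 per kb in all tested protein-coding genes higher and lower. The genes not called had the highest median, 2.82 per kb, and all 17 of them held the word, against 83.3% of those higher and 63.6% of those lower. ATTTA was present in 34 of the 40 genes (85%, against 69.9% of tested genes), in a set whose 3' regions are also richer in A and T (median 63.1%, against 57.4%). The longer word TTATTTATT, a form of AU-rich element, was found in 1 of the 40 genes (2.5%, against 8.36%), CHEK1, which was not called. It is printed with its neighbouring bases, the word in capitals, because AU-rich sequence is what AUF1 is known to bind.
CHEK1: aacctgttTTATTTATTtgaaccta
None of the genes called higher or lower held this longer word, so their changes cannot be sorted by it.

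**Figure D5:**
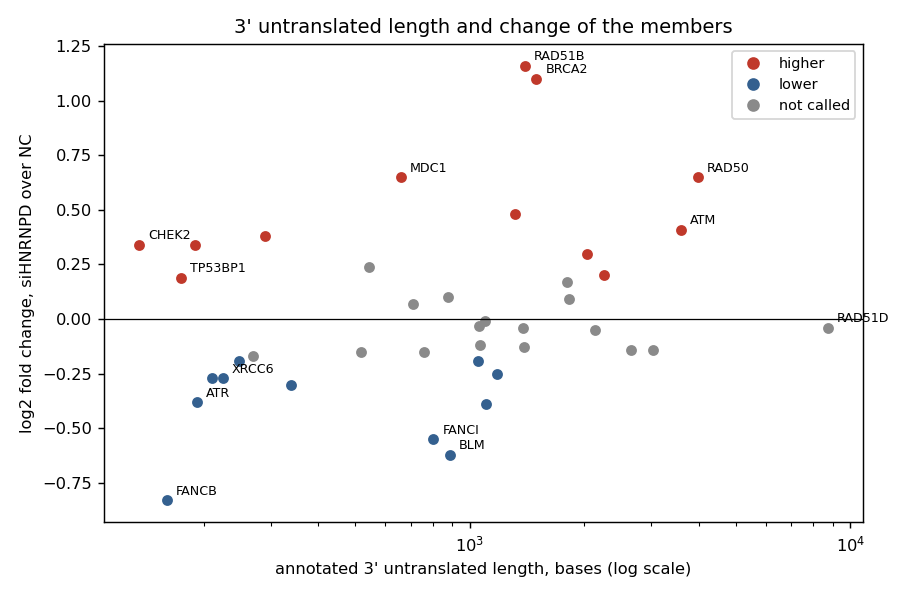
Each point is a gene, placed by the annotated length of its 3' untranslated region (bases, log scale) and its log2 fold change, siHNRNPD over NC; colours give the edgeR call. RAD50 and ATM, both higher, have 3980 and 3591 bases, while FANCB and ATR, both lower, have 160 and 192, and CHEK2 and TP53BP1 are higher with 135 and 174.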

How the data were processed

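RNA-seq read counts per gene were analysed for 6 A549 libraries. Per the labels' protocols, Trizol RNA and the Illumina TruSeq RNA kit were used. The values are whole-number read counts deposited in 1 table, with gene coordinates and the summed exon length that the authors give as another column. The submitters' processing notes name Bowtie 0.12.2, and 2 builds, GRCh38 and mm8, whose roles they leave unstated. All 40 genes overlap the RefSeq gene of the same symbol on GRCh38.p14. For the counting program, annotation version, strand setting and multiply matching reads, the details were not given in the sources used here, so reads over exons shared with an antisense gene cannot be assigned. Among counts of 1 to 20, 66.2% to 69.5% per library were even; the reason was not tested, and counts divided by 2 are an alternative. Intervals and errors cover counting and the spread between libraries only.

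The comparison of siHNRNPD with NC used edgeR 4.0.16 under R 4.3.3 (quasi-likelihood test, robust, TMM, filterByExpr, group only) over 20465 genes, with Benjamini-Hochberg adjustment over all of them; calls are at an adjusted p under 0.05, and SEs come from the log2 fold change and its F. CPM use TMM-scaled totals. Alternatives were DESeq2 1.42.0, limma 3.58.1 voom and those given in the closing section. Values in every library are given for the 3 genes with the smallest p in each role group, for genes called at 1.5-fold or more and, chosen after their values were seen, for PALB2, BRCA1, XRCC3, NBN, FANCD2, PRKDC, MRE11 and H2AX; of the 65 further repair genes, the same holds for the 4 per direction with the smallest p, except a gene that is not reported here. The 40 genes, the lists and this rule were chosen with earlier results of these data known, and the sequence features of the 3' regions and the partner ratios were chosen after the counts were seen. No replicates were 1 library deposited more than once (chi-square per degree of freedom 6.57 to 27.67 between replicates).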

Additional observations from a re-analysis of the deposited data

How the results depend on the processing

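Over 16 alternatives, 624 of 640 values of the 40 genes kept their side of the threshold; 12 lost a call and 4 gained one, and 18 of the 23 called genes kept the call under all 16. The sign was opposite in 10 values of 6 genes, 0 of them of a gene called in either fit. The genes higher ran from 10 to 13 and those lower from 10 to 12. The HNRNPD log2 fold change ran from -2.53 to -2.46 as each library was left out. The number of end resection genes higher was 1 with the DESeq2 Wald test and 1 to 2 over the libraries left out. The number of end joining genes higher was 2 with at least 1 CPM required in 3 libraries, 2 with counts divided by 2, and 0 to 1 over the libraries left out. Over those libraries, 1 to 2 recombination genes were lower, the recombination median ran from -0.06 to 0.01, the Fanconi median from -0.21 to -0.09, the end joining median from -0.14 to -0.04, and 7 to 11 of the other repair genes were higher. The cause of these shifts was not tested. Same-numbered libraries did not deviate together (correlations of 0.03, 0.02 and 0.01 for replicates 1, 2 and 3), and with the replicate block 12 of the 40 genes were higher and 11 lower. The lowest count of any of the 40 genes in a library was 40, in RAD51B.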
